A study of Mus musculus with 2 samples.

Results

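The transcripts described here encode enzymes and receptors of the prostanoids and leukotrienes, lipid mediators made from arachidonic acid. They were measured in splenic antigen-presenting cells (APCs) on Affymetrix arrays. The set is Ptgs1, Ptgs2, Ptges, Tbxas1, Tbxa2r, Ptger2, Ptger4, Alox5, Alox5ap and Cyp4f18. Members were found by gene symbol in the platform annotation, which gave 14 probe sets for 9 of the 10 genes, out of 18193 named genes and 45037 probe sets in all. Ptgs1 was not analysed here, because no probe set carried its symbol alone. The set was chosen from these same arrays with its ratios in view, so every ratio below is a description and none is a test.

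Both arrays held RNA of splenic APCs of 10-week-old female wild-type C57BL/6 mice. On both, the APCs had been cultured overnight beside CD4+ T cells with the P25 T cell receptor, a transgenic receptor for a mycobacterial peptide. One culture received the P25 peptide, and the other received medium alone. The APCs were then enriched, and each condition's single array received RNA mixed from 3 experiments, so replicate error and p-values cannot be given. The sources used here do not give the kind of APC or the purity after enrichment.

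Cyclooxygenases, encoded by Ptgs1 and the inducible Ptgs2, turn arachidonic acid released by phospholipases into prostaglandin H2. Ptges encodes the inducible synthase that makes prostaglandin E2 from it, and Tbxas1 encodes thromboxane A synthase. Prostaglandin E2 acts on APCs and lymphocytes through the receptors EP2 and EP4, encoded by Ptger2 and Ptger4, and thromboxane acts through the receptor encoded by Tbxa2r. In the other branch, the lipoxygenase encoded by Alox5 needs the membrane protein encoded by Alox5ap to start leukotriene synthesis, and Cyp4f18 encodes a cytochrome P450 that hydroxylates leukotriene B4, a step in its inactivation.

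Tbxa2r and Cyp4f18 stood near the bottom of the ratios of P25 over medium among genes with signals over the floor in both conditions, and the inducible enzymes Ptgs2 and Ptges lay above 2-fold on the other side, though from dim probe sets. The remaining measured members, Tbxas1, Ptger4, Alox5 and Alox5ap, were within 2-fold. Values are MAS5 signals on a linear scale. A floor was set at the 40th percentile of both arrays, a signal of 10.3, and a gene counted as measured when at least 1 array was above it. Lower signals were raised to the floor, so where only 1 array was above it the fold is a bound, written "at least". Each gene was read from its brightest probe set. Of the 9 genes, 8 were measured and 6 were above the floor on both arrays.

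Of the 8 measured members, 2 were at least 2-fold higher with P25, against 9.43% of all 12897 measured genes, and 2 were at least 2-fold lower, against 7.22%. The members were chosen on this contrast, so nothing is read from these counts. Their median log2 ratio was -0.51, beside 0.02 over all measured genes. Bringing both arrays to one median, or matching their spike-in controls, moved the median of all genes to 0.15 and 0.16, and that of the members to -0.36 on both scales. Median scaling also changed the count over all genes from 1216 higher and 931 lower to 1597 and 653. Differences smaller than about 0.15 on the log2 scale are therefore within what the scaling alone moves.

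**Figure D1:**
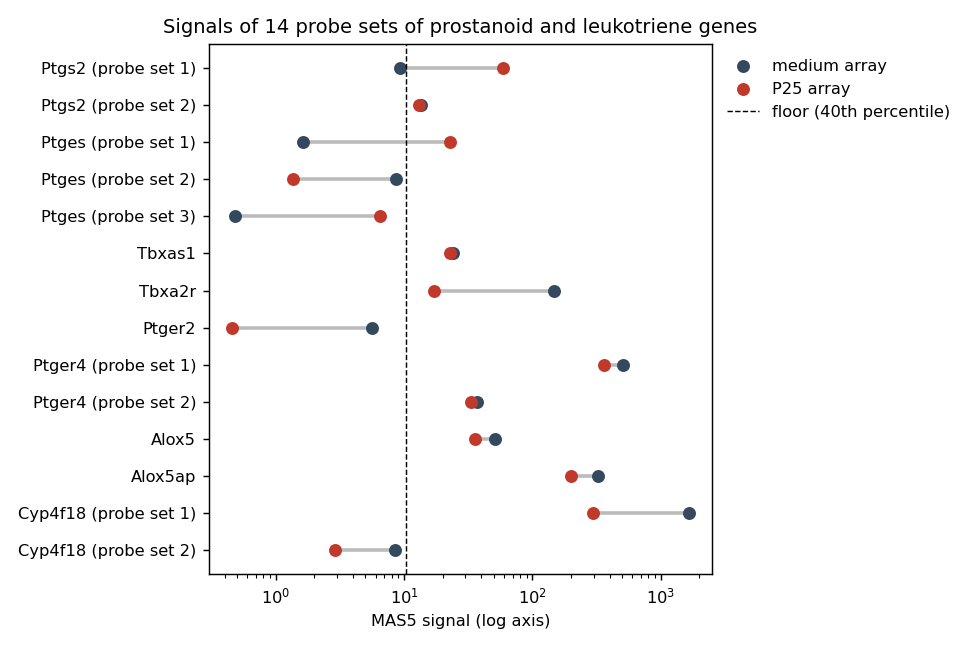
MAS5 signal (log axis) of each of the 14 probe sets on the P25 array (red) and the medium array (dark), 1 array per condition, with the floor of 10.3 as a dashed line. Tbxa2r and the first probe set of Cyp4f18 show the widest gaps among probe sets that exceed the floor in both conditions, with P25 lower, and 4 probe sets lie under the floor on both arrays.

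Among the enzymes of prostanoid synthesis, Ptgs2 had a signal of 58.6 with P25 and 9.34 with medium on probe set 1417262_at. The medium signal was just under the floor, so Ptgs2 was at least 5.69-fold higher with P25, and no rank is given, since the size of the bound follows the floor. Its other probe set, 1417263_at, gave 13.1 with P25 and 13.5 with medium, a log2 ratio of -0.04. The probe sets of Ptgs2 thus disagreed, with one far apart between the arrays and the other level and close to the floor. The platform annotation lists the same transcript record for both. With the median over both probe sets the log2 ratio was 1.23, and with the floor at the 60th percentile, a signal of 38.6, it was a bound of 0.60, under 2-fold.

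Ptges, the enzyme that acts after the cyclooxygenases to make prostaglandin E2, had a signal of 22.6 with P25 and 1.64 with medium on 1449450_at. It was at least 2.20-fold higher with P25. The second probe set on the same transcript record gave 6.50 and 0.484, both under the floor, and its remaining one gave 1.36 with P25 and 8.63 with medium, also both under the floor. Only 1 of its 3 probe sets was therefore measured, and with the floor at the 60th percentile none was. Tbxas1, the thromboxane synthase gene, had 22.7 with P25 and 24.0 with medium, a log2 ratio of -0.08 that turned to 0.06 under median scaling and 0.07 under spike-in scaling. Its direction is not settled, and the arrays gave nearly level signals.

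Among the prostanoid receptors, Tbxa2r had a signal of 17.1 with P25 and 148 with medium on its single probe set, 1419222_at. It was 8.69-fold lower with P25, a log2 ratio of -3.12, and none of the 10917 genes that exceeded the floor in both conditions had a lower ratio on the deposited scale (of all measured genes 0.395% were at least 4-fold lower). The P25 signal was close to the array's median signal, so the probe set went from clearly above the middle of the signals to about the middle. The size depended on the floor. Raised to the 60th percentile, which lies above the P25 signal, it left a bound of -1.94, just under 4-fold, and with 16 added to each signal in place of a floor it was -2.31. Of the measured genes with a mean signal under 100, 0.585% were at least 4-fold lower.

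Ptger4, which encodes the EP4 receptor, had signals of 363 with P25 and 505 with medium on its brighter probe set, 1424208_at. Its log2 ratio there was -0.48, and the dimmer probe set, with 33.1 and 37.2, gave -0.17. Both probe sets were lower with P25 and both were within 2-fold. Ptger2, which encodes EP2, gave 0.454 with P25 and 5.60 with medium, both under the floor, so no ratio is given. EP4 was thus the only one of these prostaglandin E2 receptors measured on these arrays.

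In the leukotriene branch, the synthesis genes were within 2-fold and lower with P25. Alox5 had 35.5 with P25 and 51.5 with medium, 1.45-fold lower, and Alox5ap had 198 and 325, 1.64-fold lower. Their log2 ratios were -0.54 and -0.71. Across the 9 settings tried they ran from -0.54 to -0.36 for Alox5 and from -0.71 to -0.56 for Alox5ap, so neither changed sign or reached 2-fold. Each has 1 probe set, so a choice of probe set could not move it, and median or spike-in scaling shifts all genes alike. The Alox5 ratio was only slightly larger in size than 0.48, the SD of 1 probe set taken from dim pairs of a gene. It was smaller than 0.68, the SD of the difference between the probe sets of such a pair.

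Cyp4f18, whose enzyme hydroxylates leukotriene B4, differed widely between the arrays. Its signal was 297 with P25 and 1661 with medium on 1419219_at, 5.59-fold lower with P25. Of the 10917 genes with signals over the floor in both conditions, 7 had a log2 ratio lower than its -2.48. Only 0.231% of the genes with a mean signal of 100 or more were at least 4-fold lower. Over the 9 settings the log2 ratio ran from -2.60 to -2.33. The other probe set of Cyp4f18 gave 2.88 with P25 and 8.45 with medium, both under the floor, so it neither repeats nor contradicts the brighter one.

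**Figure D2:**
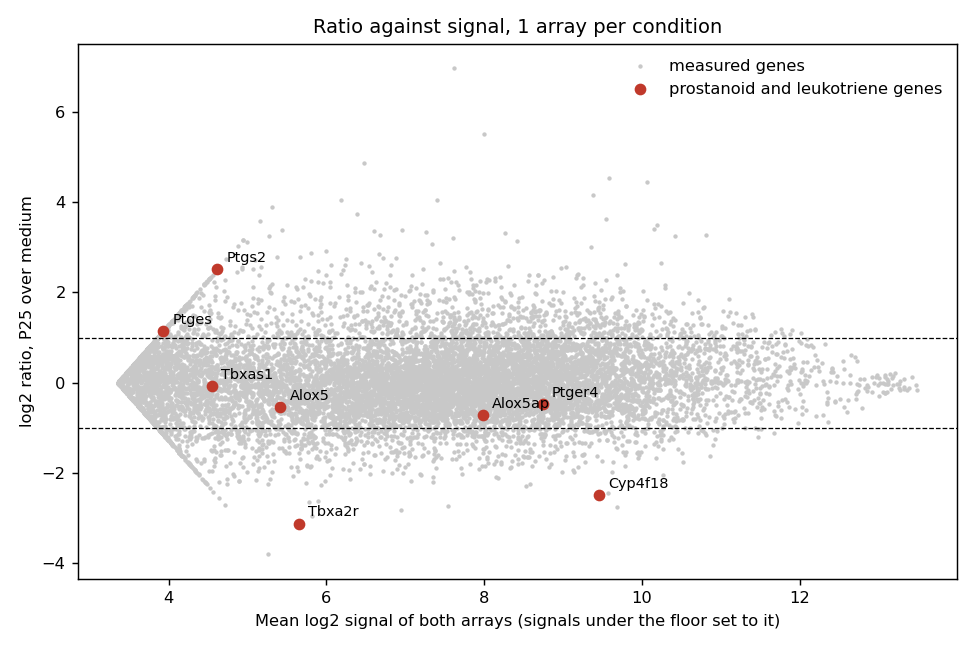
Log2 ratio of P25 over medium against the mean log2 signal for the 12897 measured genes (grey) and the 8 measured prostanoid and leukotriene genes (red), with dashed lines at 2-fold. Cyp4f18 at -2.48 and Tbxa2r at -3.12 lie below nearly all genes of like signal, while Ptgs2 and Ptges lie on the upper diagonal edge, which is formed by genes at the floor with medium.

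With no replicate array, disagreement between probe sets of one gene was the available gauge, and it covers only part of the technical error. Over 2677 genes whose second probe set had a signal under 100, the log2 ratios of the pair differed with an SD of 0.68, and over 2616 genes with a brighter second probe set the SD was 0.46. Among the members, the probe sets of Ptger4 differed by 0.31. Those of Ptgs2 differed by at least 2.55, a bound, since its brighter probe set was at the floor with medium. No other member had 2 measured probe sets. The bounded ratios of Ptgs2 and Ptges are outside what this gauge covers. This gauge covers disagreement between probe sets read on the same arrays. Array-wide differences in labelling or hybridisation are shared by both probe sets of a pair, so it leaves them out. It also leaves out any difference between cultures or mice.

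**Figure D3:**
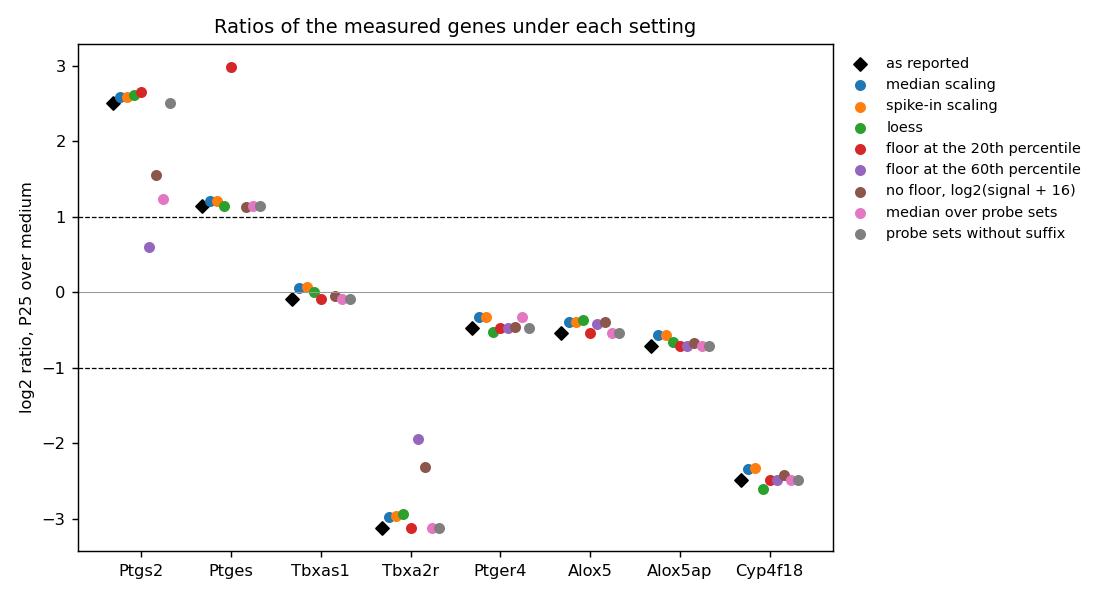
Log2 ratio of P25 over medium for the 8 measured genes as reported (black diamonds) and under 8 other settings of scaling, floor and probe set choice (coloured points), with dashed lines at 2-fold. Cyp4f18 stays between -2.60 and -2.33, Tbxa2r between -3.12 and -1.94, and Ptgs2 spreads from 0.60 to 2.65.

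The sequences before the start sites of Ptgs2, Tbxa2r and Cyp4f18 are shown. These members were picked for the largest log2 ratios in size with the floor of 10.3. The ratio of Ptgs2 is a bound there, as is that of Ptges, so the order of Ptgs2 and Ptges follows the floor. Lowering it to the 20th percentile gave at least 2.99 for Ptges and 2.65 for Ptgs2. Each sequence shown is the 250 bases before the RefSeq start on build GRCm38.p6, in the direction of transcription. The arrays measure no binding and the files give no build. Ptgs2 is at chr1:150099781-150100030 on the plus strand, Tbxa2r (the upstream of its listed start sites) at chr10:81328018-81328267 on the plus strand, and Cyp4f18 at chr8:72009627-72009876 on the minus strand. Capitals mark matches to any of 8 short motifs searched on both strands.
Ptgs2: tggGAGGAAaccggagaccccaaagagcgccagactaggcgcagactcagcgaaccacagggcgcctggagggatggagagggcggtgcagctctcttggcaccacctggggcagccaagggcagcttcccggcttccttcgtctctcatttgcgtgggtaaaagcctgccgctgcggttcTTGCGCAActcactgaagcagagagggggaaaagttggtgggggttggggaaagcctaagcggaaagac
Tbxa2r: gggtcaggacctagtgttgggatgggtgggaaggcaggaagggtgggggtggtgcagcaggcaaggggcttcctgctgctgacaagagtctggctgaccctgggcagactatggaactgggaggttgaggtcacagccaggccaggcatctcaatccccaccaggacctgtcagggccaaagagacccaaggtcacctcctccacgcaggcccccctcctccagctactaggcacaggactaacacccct
Cyp4f18: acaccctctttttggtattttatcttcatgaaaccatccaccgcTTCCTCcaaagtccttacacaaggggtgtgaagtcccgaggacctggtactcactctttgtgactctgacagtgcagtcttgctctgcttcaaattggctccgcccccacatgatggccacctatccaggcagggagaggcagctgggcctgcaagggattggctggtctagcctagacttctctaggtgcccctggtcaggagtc

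The motifs were the NF-κB letters GGANTTTCC (in 1.07% of 32851 promoters of this length), the GAS letters TTCNNNGAA of STAT factors (7.02%), the ISRE letters GAAANNGAA of interferon response (7.13%), AP-1 as TGANTCA (6.75%), the PU box GAGGAA of PU.1 and related factors (23.2%), C/EBP as TTGCNNAA (9.56%), CRE as TGACGTCA (1.55%) and the TATA box as TATAAA (12.4%). In Ptgs2 the capitals are a PU box from 247 to 242 bases before the start and a C/EBP match, TTGCGCAA, from 69 to 62 bases before it. In Cyp4f18 they are a PU box on the other strand, from 206 to 201 bases before the start, and Tbxa2r held none of the 8 motifs at either listed start site. Promoters were listed for 9 of the 10 genes, all but Alox5ap. Of these 9, 6 held a PU box (Ptgs1, Ptgs2, Ptges, Tbxas1, Alox5 and Cyp4f18), against 23.2% of all 32851 promoters. AP-1, C/EBP and TATA box letters were each in 1 of the 9, and NF-κB, GAS, ISRE and CRE letters in 0. No test was run on these counts, and nothing is read from them. The PU box of Tbxas1 abuts TATA box letters. A match describes letters only, and a missing match says only that these letters are not in this window.

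Beyond the set, 65 other genes of eicosanoid synthesis, signalling and breakdown were listed. Of these, 56 had a probe set of their own symbol and 35 were measured. With P25, 3 were at least 2-fold higher (8.57%), 2 were at least 2-fold lower (5.71%) and 30 were within 2-fold, shares near the 9.43% and 7.22% of all measured genes. Their median log2 ratio was -0.11, which changed sign under array scaling (0.03 by the median and 0.04 by the spike-ins).

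On the deposited scale the higher genes were all phospholipases, 3 of the 9 measured, against 9.43% of all measured genes. With median and spike-in scaling the lipoxygenase gene Aloxe3 (log2 ratios of 1.11 and 1.12) and the receptor gene Ptgir also passed 2-fold. Pla2g16, which encodes a phospholipase able to cut phospholipids at both acyl positions, had 719.8 with P25 and 239 with medium, 3.01-fold higher, and its other probe set gave a log2 ratio of 1.73. Pla2g4c, a cytosolic phospholipase A2 gene, had 33.8 and 13.4, 2.52-fold higher, with 0.90 on its other probe set. Pla2g4a, whose product is the main enzyme that releases arachidonic acid on stimulation, had 36.8 and 18.3, just past the threshold at 2.01-fold. Pla2g16 was bright and its probe sets gave like values, while the others were dim and dropped out with the floor at the 60th percentile. On the lower side were the secreted Pla2g7, which hydrolyses platelet-activating factor (190.1 with P25 and 323 with medium), and Pla2g15, a lysosomal phospholipase (80.7 and 141), both within 2-fold on these probe sets. The other probe set of Pla2g15 gave a log2 ratio of -1.24, past 2-fold lower.

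In the leukotriene branch, Lta4h, whose enzyme makes leukotriene B4, had 789 with P25 and 738 with medium, a log2 ratio of 0.10, with -0.68 and 0.32 on its other probe sets. Ltb4r1, which encodes the high-affinity leukotriene B4 receptor, had 4.64 with P25 and 23.0 with medium and was at least 2.23-fold lower. Ltc4s, the leukotriene C4 synthase gene, was under the floor on both arrays. Lta4h was thus nearly level between the arrays on its brightest probe set. Cyp4f18 and Ltb4r1 were lower with P25, and so were the synthesis genes Alox5 and Alox5ap, within 2-fold. No pattern over the leukotriene B4 genes is read from these values.

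Ephx1, the microsomal epoxide hydrolase gene, had 397 with P25 and 1309 with medium and was 3.30-fold lower. It had the lowest ratio of the pathway genes over the floor in both conditions, and Ltb4r1, a bound, reached -2.31 with the floor at the 20th percentile. The measured relatives of Cyp4f18 were Cyp4f13, at 45.4 with P25 and 81.6 with medium, and Cyp4f16, at 30.8 and 39.4, both within 2-fold. The log2 ratios were -0.85 for Cyp4f13 and -0.36 for Cyp4f16 (0.06 on its other probe set), against -2.48 for Cyp4f18, and the difference between the relatives was not tested. Of the other prostanoid receptors, Ptgir, for prostacyclin, had 20.5 and 8.88, at least 1.99-fold higher, and passed 2-fold with median and spike-in scaling. Ptger1, Ptger3 and Ptgdr2 were under the floor on both arrays.

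**Figure D4:**
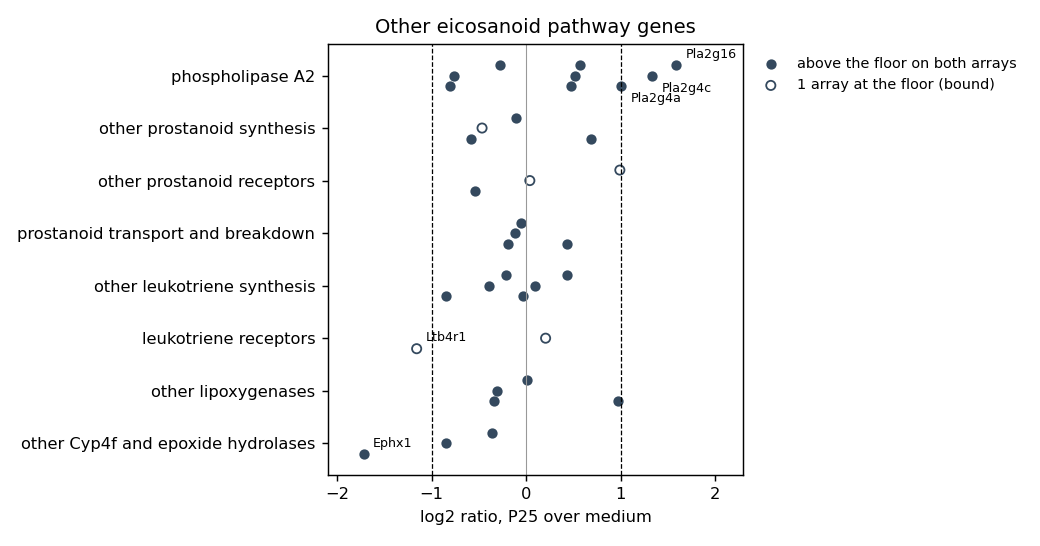
Log2 ratio of P25 over medium for the 35 measured genes of the pathway list, by role, with dashed lines at 2-fold (filled points were above the floor on both arrays, open points are bounds with 1 array at the floor). Pla2g16, Pla2g4c and Pla2g4a lie at or beyond 2-fold on the higher side, and Ephx1 and Ltb4r1 on the lower side.

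Markers of several blood cell types differed between the same arrays, and in bulk RNA fewer cells of a type and less RNA per cell cannot be told apart. Alox5, Alox5ap and Cyp4f18 are known in myeloid cells, and Tbxas1 and Tbxa2r also in platelets. In the macrophage and monocyte list, 9 of 12 measured markers were lower with P25 by 2-fold or more, against 7.22% of all measured genes. Their list had a median log2 ratio of -1.24 and a signal summed over the measured markers of 1438 against 3379. Among the 9, Mertk, Ccr2 and C1qb were bounds. Other measured probe sets were within 2-fold for Csf1r, Cx3cr1 and Spic, past 2-fold lower for C1qb, and on either side for Ccr2. Of 11 neutrophil markers 8 were at least 2-fold lower (median -1.10, summed signal 7306 against 13596). Of 11 B cell markers 3 were at least 2-fold lower (median -0.63, summed signal 24096 against 34142), and of 10 conventional dendritic cell markers 3 were lower and 1 higher (median -0.75, though -0.30 with the floor at the 60th percentile, summed signal 4803 against 3865). The higher dendritic sum rested on Irf8, which B cells also express, and without it, a choice made after its value was seen, the sum was 529 against 926. The B cell genes Cd79a, at 3655 with P25 and 6119 with medium, and Ms4a1, at 5911 and 5041, were bright on both arrays.

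Of 8 measured platelet and megakaryocyte markers 1 was at least 2-fold lower and none higher (median 0.03, summed signal 189.9 against 231). Pf4 had 73.0 with P25 and 103 with medium, and Ppbp, at 4.56 and 27.7, was at least 2.69-fold lower. The 8 mast cell and basophil markers had a median of 0.12 (2 lower, summed signal 137 against 142), the 5 eosinophil markers -0.69 (1 lower, 258 against 425) and the single erythroid marker measured, Slc4a1, 0.02 (14.7 against 14.5). Of the T cell markers, 5 were measured with a median of -0.05 (1 lower, 113 against 167). On their brightest probe sets Cd3e, Cd3d, Cd4, Cd6 and Cd247 were under the floor on both arrays. Another probe set of Cd247 was above the floor and gave a log2 ratio of 0.26. No marker gene was at a signal of 0. The other defining markers under the floor on both arrays, on their brightest probe sets, were C1qa, C1qc, Cxcr2, Xcr1, Clec1b, Gp1bb, Il4, Ms4a2, Tpsb2, Alas2, Hba-a1 and Klf1. For Gp1bb another probe set was above the floor, with a log2 ratio of 0.01.

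Of the 71 measured markers, 60 were above the floor on both arrays. The lowest of these was the neutrophil marker Mpo at 3.96-fold lower. None of the 60 had a ratio as low as that of Cyp4f18 or Tbxa2r, while 36 were as low as Alox5 and 30 as low as Alox5ap. Nothing is read from these counts, since all of these members were chosen with their ratios known. Of all 10917 genes above the floor on both arrays, 7 were lower than Cyp4f18 and 0 lower than Tbxa2r. For Alox5 the number was 2322, and for Alox5ap it was 1574. Another 7 of the 71 measured markers were at the floor with P25 and only bounded. On their signals without a floor, 2 of these 7 were lower than Cyp4f18, namely the monocyte chemokine receptor gene Ccr2 at a log2 ratio of -2.61 and Ppbp at -2.60. These values rest on P25 signals under the floor, 6.89 for Ccr2 and 4.56 for Ppbp. The other measured probe sets of Ccr2 gave -1.26 and -0.13, neither as low as Cyp4f18. The part of the cell type markers in the ratios of these genes was not tested.

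**Figure D5:**
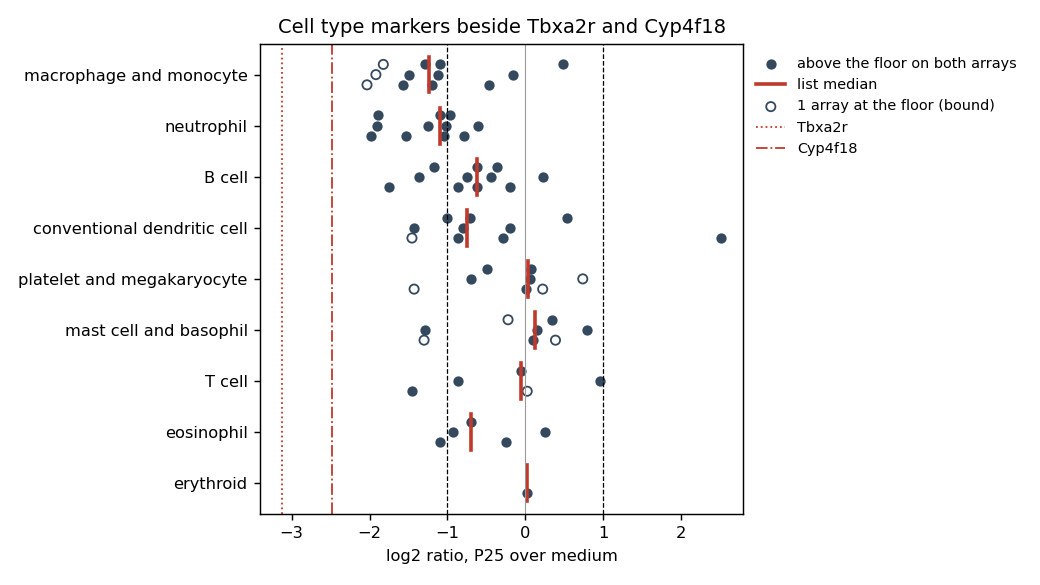
Log2 ratio of P25 over medium for the measured markers of 9 cell type lists (points, open where 1 array was at the floor) with each list's median as a red bar, and the ratios of Tbxa2r (dotted line, -3.12) and Cyp4f18 (dash-dotted line, -2.48). All 60 filled points lie to the right of both lines, the open points are bounds with no settled place, and the macrophage and neutrophil lists have the lowest medians.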

How the data were processed

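RNA was labelled with biotin from 1 µg of total RNA and hybridised to 1 array per condition, per the labels' protocols. The deposited values are MAS5 signal intensities on a linear scale made in GCOS, per the submitters' processing notes. The sources used here give no versions, scaling target or detection calls. Because MAS5 takes off the mismatch signal, dim probe sets give unsteady ratios. The number of arrays, 2, limits the precision, and array handling and treatment cannot be told apart.

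Of 45101 probe sets, 64 controls were left out. Of the rest, 34945 had 1 gene symbol, 932 several and 9160 none in the platform annotation, and symbols were updated by Entrez number through RefSeq of GRCm38.p6. Signals of different probe sets were not compared as transcript levels, though the signal of Tbxa2r was placed against its array's median signal. Marker sums describe a list on 1 scale per array, in which bright probe sets weigh most. The ratio, floor and count steps were checked on simulated data. Python 3.11.15, pandas 2.3.3 and statsmodels 0.14.6 (loess, span 0.3) were used.

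The members, lists, motifs and settings were chosen with earlier results of these data known. Named genes are all members, the pathway genes past 2-fold, and others where a count or role turns on them, the latter chosen after their values were seen. Alternatives were 3 scalings, floors at the 20th and 60th percentile, 16 added in place of a floor, and 2 other choices of probe set.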

Additional observations from a re-analysis of the deposited data

How the results depend on the processing

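The count of members at least 2-fold lower was 2 under all 8 other settings, and that of members at least 2-fold higher was 2 under all but the floor at the 60th percentile, where it was 0, since that floor leaves Ptges unmeasured and Ptgs2 under 2-fold. With that floor 591 genes were at least 2-fold lower, and of the pathway list 1 was higher and 1 lower. With the floor at the 20th percentile, which admits dimmer probe sets, all genes gave 2438 higher and 1933 lower, and the pathway list 8 and 5. With 16 added to the signal 576 genes were lower, and the pathway list had 1 higher and 1 lower. With median and with spike-in scaling the pathway list had 5 higher. The median log2 ratio of the members stayed below 0 under every setting. Of 202 other log2 ratios and list medians, 189 moved by less than 0.41, the SD of 1 probe set taken from pairs of a gene, 13 moved by more and 0 of those past 2-fold changed sign. Part of the 189 could not move, since a gene with 1 measured probe set above every floor keeps its ratio under other floors and probe set choices. The dendritic cell marker sum changed direction without Irf8. Depth is unknown for arrays; 4 of the 14 probe sets were too dim to measure. No paired analysis was possible because each condition has 1 array, so no replicate could be left out either.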
